A study of Mus musculus with 4 samples.

Results

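Germinal centre (GC) B cells of Peyer's patches (PP) were set against GC B cells of peripheral lymph nodes (pLN). The comparison took the array titled for GC B cells of each tissue, 2 of the 4 arrays in the series, and all 45101 probe sets on them. The other 2 arrays held naive B cells of the same tissues and were used only to place the GC values. All mice were C57BL6/J wild type, adult and kept under specific pathogen-free conditions. The pLN donors had been immunised with TNP-KLH, a hapten coupled to a carrier protein, in incomplete Freund's adjuvant, an oil emulsion, whereas the PP donors were untreated. GC cells were sorted as B220+PNA+Fas+ and naive cells as B220+PNA-Fas-. RNA of 3 to 5 mice was pooled for each group and hybridised once, so there was 1 array per group, no spread between replicates and no test of any difference. Tissue and immunisation differed together and cannot be told apart here.

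Germinal centres are sites in lymphoid follicles where B cells divide, mutate their antibody genes and are selected by helper T cells. In an immunised lymph node they form after a single antigen is given, while in Peyer's patches, the follicles of the small intestine wall, they are maintained by antigens of food and gut microbes. B cells of Peyer's patches are known for switching to IgA, a process that depends on TGF-beta and is aided by retinoic acid and intestinal dendritic cells, and for giving rise to plasma cells that home to the gut.

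Signals are the deposited intensities brought to a common 2% trimmed mean of 500 on every array, and each gene is represented by its brightest probe set on the 2 GC arrays. A signal was counted as above the detection level when it exceeded 38.9, the higher of the 90th percentiles of 69 probe sets for genes of other tissues on the 2 GC arrays. Of 18194 genes with a symbol, 11254 were above it on at least 1 GC array. Ratios are PP over pLN, on the log2 scale, after any signal below the level was raised to it, and "at least" marks a ratio whose dimmer signal was so raised. A gene was counted as higher or lower at a ratio of 2-fold or more. The 3' to 5' ratio of the Gapdh controls was 1.48 for pLN and 1.67 for PP in GC cells, but 18.7 and 96.4 in naive cells of the same tissues. The spike-in medians were 4092 and 3964 on the GC arrays and 7500 and 15677 on the naive arrays, so the GC pair was the better matched.

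Both arrays carried the markers of the sorted population at close levels. Fas, the death receptor used in the sort, read 4266 in pLN and 4980 in PP, against 515 and 403 on the naive arrays. Ptprc, which encodes the B220 antigen, read 6997 and 7188. Bcl6, the transcription factor required for the GC, read 7082 and 7604, but also 5987 and 2990 on the naive arrays. S1pr2, a receptor that holds B cells in the follicle centre, read 3847 and 3841, against 128 and 16.8 on the naive arrays. Ms4a1, the B cell antigen CD20, read 11720 and 11357, and 9996 and 6861 in naive cells. Of 17 GC programme genes measured, 0 reached 2-fold in either direction, where 4.82% of all genes were higher and 1.66% lower in PP, and their median log2 ratio was 0.06, beside 0.03 over all genes. These shares are the background for the count of every gene list. The largest difference in this list was Rgs13, a G protein regulator, at 2975 in pLN and 4409 in PP. Both GC arrays therefore carried Fas and S1pr2 far above their naive signals, whereas Bcl6 and Ms4a1 were bright in naive cells too.

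Of 11254 genes, 542 (4.82%) were higher in PP GC cells by 2-fold or more and 187 (1.66%) were lower. For 166 of the higher and 22 of the lower genes the dimmer array lay below the level, so the ratio is a bound. A ratio of 4-fold or more was seen for 121 genes in the higher and 32 in the lower direction. For 82.4% of the genes the arrays were within 1.5-fold of each other. Across genes, which are not independent replicates, the log2 signals of the arrays correlated with Pearson's r = 0.96. The split between directions depended on the scaling: 74.3% of the genes at 2-fold were higher in PP, but 47.9% with the values as deposited, 64.2% after quantile normalization and 67.1% after cyclic loess.

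**Figure D1:**
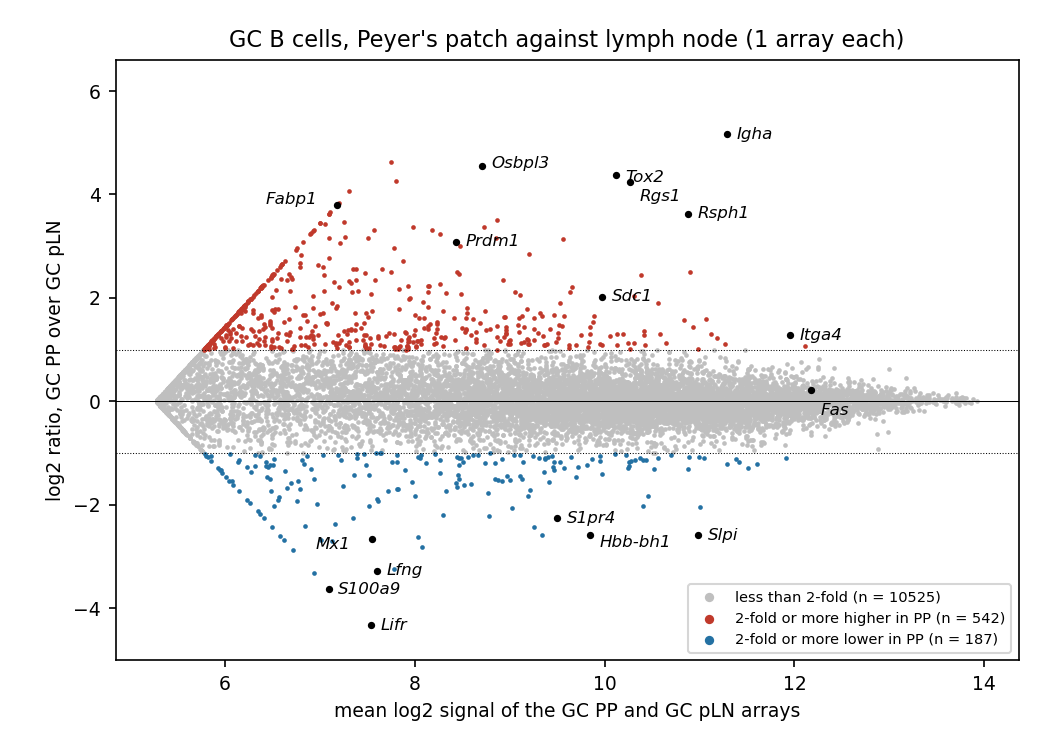
Each point is 1 of 11254 genes, with the mean log2 signal of the GC PP and GC pLN arrays (signals below the detection level raised to it) on the x axis and the log2 ratio of PP over pLN on the y axis; dotted lines mark 2-fold. Red points (542) are higher and blue points (187) lower in PP, black points are named genes, and the diagonal edges are genes whose dimmer signal was raised to the detection level.

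Igha, the constant region of IgA, read 420 in pLN and 15042 in PP, 35.8-fold apart and the largest computed ratio of all genes. Its 3 probe sets differed by log2 ratios of 5.16 to 6.19. On the naive arrays Igha read 55.0 in pLN and 8754 in PP, so both PP arrays were high and both pLN arrays low. Prdm1, the transcription factor that drives B cells toward antibody secretion, read 118 in pLN and 1007 in PP (8.51-fold). Sdc1, the surface proteoglycan CD138 of plasma cells, read 499 and 2024, with probe sets from 1.69 to 2.26, but 904 and 480 on the naive arrays. Derl3, which helps remove misfolded proteins from the endoplasmic reticulum, read 451 and 1247.

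Of 17 measured genes of the plasma cell list, 3 were higher (Prdm1, Sdc1 and Derl3), where 4.82% of all genes were, 0 were lower and the median log2 ratio was 0.33. The other 14 lay within 2-fold. Prdm1 and Sdc1 are among the 7 markers, which were chosen with earlier results of these data known, so the count of 3 gives no independent support. Jchain, which links polymeric IgA and IgM, read 9253 and 10618. Mzb1, a chaperone of IgM assembly, read 5705 and 5133, and Xbp1, the factor that enlarges the secretory pathway, 2647 and 3333. Irf4, which acts with Prdm1 in this step, read 3555 and 5302, a log2 ratio of 0.58. Tnfrsf17, the survival receptor of plasma cells, was below the level on both arrays. Of 22 genes of secretion and the unfolded protein response, Ern1, a stress sensor, and Pdia4, a disulfide isomerase, were higher, and the median was 0.00. Ern1 read 128 and 298, a log2 ratio of 1.22. Another 2 probe sets of Ern1, dim and below the level in pLN, gave bounds of at least 0.06 and 0.62. Pdia4 (90.2 and 195) came below 2-fold, at 0.84, after quantile normalization. In these bulk samples a larger share of cells carrying a transcript and more of it per cell cannot be told apart.

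Ighm and Ighg3, the other immunoglobulin constant genes measured, did not share the pattern of Igha. Of 12 genes on the list of constant regions and J chain, 4 had a probe set with a single symbol, so the rest were not compared. Ighm, the constant region of IgM, read 10161 in pLN and 10763 in PP, although its 9 probe sets above the level ranged from -1.67 to 1.91. Ighg3 read 2776 and 4384, with its probe sets at -0.36 and 0.66, but 4937 and 17337 in naive cells. These genes are related in sequence and probes can cross-hybridise, so their signals are uncertain. Switching and hypermutation genes were close in both tissues, with 0 of 17 at 2-fold and a median of 0.24. Ung, which excises the uracils made during mutation, read 2909 and 3984.

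**Figure D2:**
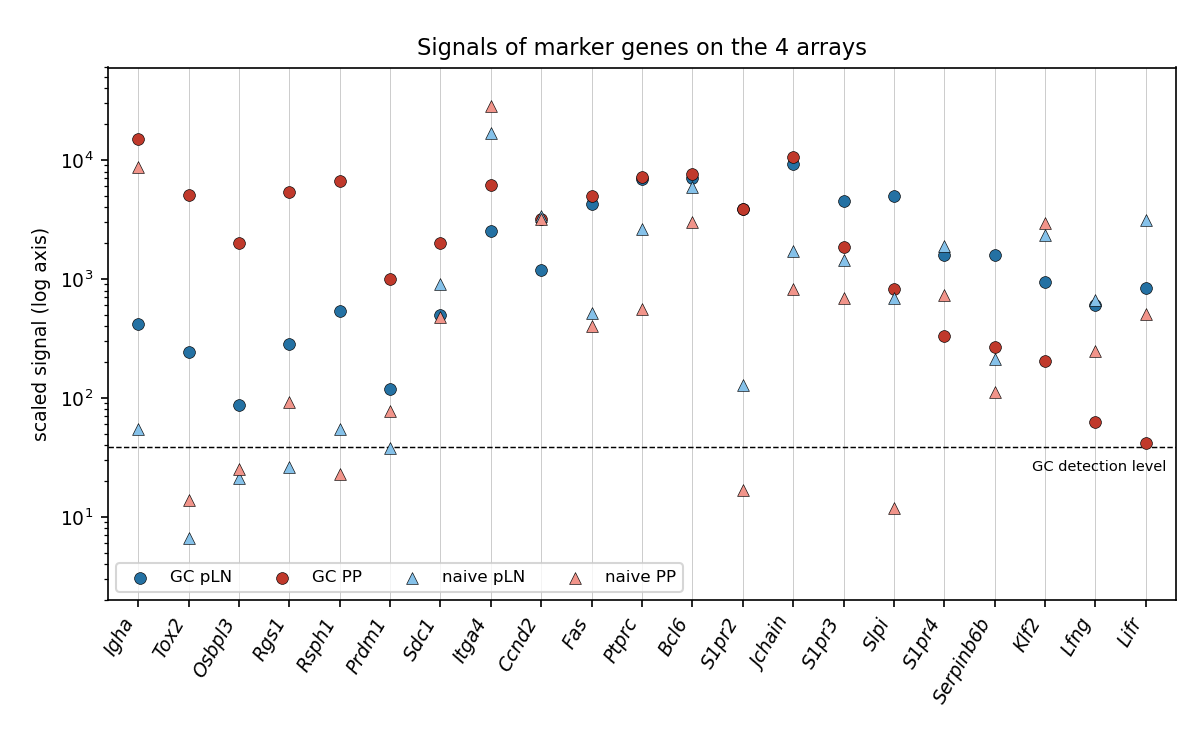
The y axis gives the scaled signal on a log axis for 21 genes named on the x axis, with circles for GC cells (blue pLN, red PP) and triangles for naive cells (light blue pLN, pink PP), 1 array each; the dashed line is the detection level of the GC arrays, 38.9 (that of the naive arrays was 109). Igha to Ccnd2 are higher on the GC PP array, Fas to Jchain are close on the GC arrays, and S1pr3 to Lifr are lower on the GC PP array.

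A group of genes was far brighter in PP GC cells than on the 3 other arrays. Tox2, an HMG-box transcription factor, read 244 in pLN and 5080 in PP (20.8-fold), and 6.70 and 13.8 on the naive arrays. Osbpl3, an oxysterol-binding protein, read 86.5 and 2016, with its probe sets at 4.41 and 4.54. Rgs1, which dampens G protein signals of chemokine receptors, read 283 and 5355 (18.9-fold), and Rsph1, a radial spoke protein of cilia, 536 and 6634 (12.4-fold). Nrep read 51.1 and 975, and its probe sets differed by 4.25 and by at least 4.78. Each of these 5 genes was below the naive detection level of 109 on both naive arrays, so naive cells give no ratio for them. Within their families the difference was not general: Tox read 563 and 854, and of 13 measured genes of the TOX and oxysterol-binding families, Tox2 and Osbpl3 were higher and Osbpl5 was lower, at 185 in pLN and 45.5 in PP.

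Fam135a had the next largest computed ratio after Igha. Its brightest probe set read 43.4 in pLN and 1071 in PP. Another read 15 and 308, and a dimmer one 4.0 and 57.7, so with pLN below the level their log2 ratios were at least 2.99 and 0.57. Dmxl2, a regulator of vesicle acidification, read 20.8 and 648 (at least 16.7-fold), and Rab20, a small GTPase of phagosomes, 38.4 and 482 (at least 12.4-fold). Among genes with several probe sets that all agreed, Gnaz, a G protein alpha subunit, read 132 and 1374. Adgrl2, an adhesion receptor, read 78.8 and 816, with probe sets at 3.37 and at least 3.39. Dkk3, a secreted protein of the Dickkopf family, read 36.5 and 480 (at least 12.4-fold), and Rflna, an actin regulator, 37.8 and 423 (at least 10.9-fold). Ccr1, a receptor for inflammatory chemokines, read 50.6 and 316.

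Genes of TGF-beta signalling, retinoid response and IgA switching were split. Of 18 measured, 4 were higher (4.82% of all genes were) and 2 lower (1.66%), with a median of 0.01. Ahr, the receptor for dietary and microbial aryl hydrocarbons, read 132 in pLN and 616 in PP (4.67-fold). Ski, a repressor of TGF-beta signalling, read 179 and 373. Tnfsf13b, the B cell survival factor BAFF (29.6 and 98.2), and Tgfbr3, a TGF-beta coreceptor (9.08 and 82.3), were at least 2.53-fold and 2.12-fold higher. With the level doubled their log2 ratios were 0.34 and 0.08. Both were above the level only in PP, so they could only come out as higher, and their part of the count supports no direction. Tgfb1 itself was lower in PP, at 1379 and 636, as was Runx1, at 380 and 181, whose 6 probe sets ranged from -1.25 to 0.33. The receptors Tgfbr1 (2483 and 3277) and Tgfbr2 (3555 and 3111), and Smad7, an inhibitor of the pathway (2481 and 2402), did not reach 2-fold. Aldh1a2, an enzyme of retinoic acid synthesis, and the receptor Rara were below the level on both arrays.

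Receptors of migration and homing differed one by one. Itga4, the alpha 4 integrin chain, read 2551 in pLN and 6168 in PP, and its 5 probe sets ranged from 1.27 to 2.24. Its partner in gut homing, Itgb7, went the other way, at 1118 and 447. Itgae, an integrin chain that binds epithelial E-cadherin, read 60.3 and 247. S1pr4, a sphingosine phosphate receptor of lymphocytes, read 1587 in pLN and 330 in PP (4.80-fold lower), and S1pr3 read 4546 and 1871, with both probe sets lower. Cnr2, a cannabinoid receptor of B cells, read 1070 and 328, whereas S1pr1, the receptor for exit from lymphoid organs, read 99.0 and 135. In all, 2 of 22 trafficking genes were higher, where 4.82% of all genes were, and 4 lower, where 1.66% were, with a median of 0.08. S1pr4, 1 of the 4, is among the 7 markers chosen with earlier results known, so its part of the count gives no independent support. Gpr183 (982 and 748) and Gpr132 (173 and 318), which also sense lipids, lay within 2-fold. The chemokine receptors Cxcr5 (3506 and 2651), Cxcr4 (5379 and 6925) and Ccr6 (3027 and 3288) did not reach 2-fold, nor did Ccr9, the receptor for the small intestine, at 46.2 and 86.8. Ccr10 was below the level in pLN and read 54.9 in PP.

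Slpi, a secreted inhibitor of leukocyte proteases, read 4973 in pLN and 828 in PP (6.01-fold lower), and 688 and 11.8 on the naive arrays, so both pLN arrays exceeded the PP array of the same cell type. Serpinb6b, an intracellular protease inhibitor, read 1584 and 266. Of the 10 measured protease inhibitors, these 2 were lower (1.66% of all genes were) and Spint2 was higher (267 and 697). The probe sets of Spint2 stood at 0.32 and 1.38. Slpi is among the 7 markers chosen with earlier results known, so its part of the count gives no independent support. Klf2, a transcription factor that controls migration receptors in resting lymphocytes, read 948 in pLN and 205 in PP, but 2322 and 2929 in naive cells. Fcer2a, the low-affinity IgE receptor CD23, read 4112 and 1824, and Cd55, a complement regulator, 929 and 433. Those 3 were the genes lower in PP among 13 of the naive and follicular list, where 1.66% of all genes were lower, and 0 were higher (median -0.31). Ccr7, which guides cells toward the T cell zone, read 375 and 588.

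The lowest computed ratio belonged to Lifr, the receptor for leukaemia inhibitory factor, at 833 in pLN and 41.4 in PP (20.1-fold lower). S100a9, described below, has only a bound of at least 12.4-fold lower, so its order against Lifr is not settled. Another probe set of Lifr read 66.1 and 16.6, and with PP below the level it was lower by at least 0.77 on the log2 scale. Lfng, a glycosyltransferase that modifies Notch receptors, read 607 and 62.5 (9.71-fold lower), and Stac2, an adaptor of calcium channels, 675 and 71.3. Crisp3, a secreted granule protein, read 717 and 102, and Uchl1, a deubiquitinase, 653 and 105. Ppfia4, a liprin, read 387 and 33.6 (at least 9.95-fold lower). Ret, a receptor kinase, read 357 and 54.7. Its other probe set, at 46.4 and 23.6, was lower by at least 0.26 on the log2 scale, PP again lying below the level. Art4 (249 and 37.9), Gm2629 (284 and 20.0) and Trabd2b (237 and 30.3) were lower by at least 6.40-fold, 7.32-fold and 6.10-fold. Hbb-bh1, an embryonic globin chain, read 2264 in pLN and 377 in PP, with 3 probe sets from -2.73 to -2.58 and naive signals of 3.70 and 7.28. The erythroid genes Hba-a1, Alas2, Car1, Slc4a1 and Epb42 were below the level on both GC arrays. Car2, a carbonic anhydrase and the 1 measured member of that list, read 371 in pLN and 538 in PP, a log2 ratio of 0.54.

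More genes had every measured probe set lower in PP. Ms4a4c, a 4-pass membrane protein of lymphocytes, read 2745 in pLN and 671 in PP, with probe sets at -2.03 and -1.95. Rgs18, a G protein regulator, read 430 and 147, and Lcp2, the adaptor SLP-76, 1057 and 411. Gpm6a, a membrane glycoprotein, read 268 and 85.7, and Cacna2d4, a calcium channel subunit, 136 and 56.5. Over the 5639 genes measured by more than 1 probe set, 1.35% were at 2-fold or more higher by all of them and 0.408% lower by all of them.

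Interferon-induced genes were lower in PP GC cells as far as they differed. Of 24 measured, 9 were lower and 0 higher, against 1.66% and 4.82% of all genes, and the median log2 ratio was -0.62, beside 0.03 over all genes. A ratio above 1 was seen for 3 of the 24, and the median stayed between -0.95 and -0.38 under the alternatives tried. Of 25 such genes on the array, 6 were below the level in PP and 1 in pLN. Ifit1, Mx2, Oas3, Oasl2 and Rsad2 passed through the pLN array alone, so they could only come out as lower. Oas3, Oasl2 and Rsad2 are among the 9, and their part of that count supports no direction. Mx1, an antiviral GTPase, read 473 in pLN and 74.7 in PP (6.33-fold lower). Usp18, which removes ISG15 and restrains the interferon receptor, read 382 and 101, and Oas1a, an RNA sensor that activates RNase L, 806 and 237. Oas3 (176 and 17.4), Oasl2 (170 and 30.2) and Rsad2 (119 and 18.9) were lower by at least 4.53-fold, 4.37-fold and 3.06-fold. Ifit3, which binds viral RNA in a complex with its relatives, read 200 and 61.8, Ifit2 222 and 101, and Xaf1 875 and 423. Cmpk2, a mitochondrial nucleotide kinase outside this list that is known as interferon-induced, read 325 and 50.9.

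The other 15 interferon genes lay within 2-fold. The transcription factors Irf7 (710 and 361), Irf9 (1690 and 1290) and Stat2 (508 and 463) stood at -0.98, -0.39 and -0.13. Ifih1, the RNA sensor MDA5, was the highest of the list at 49.2 and 91.7, and Oas2 (54.4 and 56.6) and Irgm1 (403 and 446) were the other genes with a ratio above 1. The receptor chains Ifnar1 (639 and 675) and Ifngr1 (592 and 526) were close. On the naive arrays 13 of 23 measured list members were lower in PP, where 15.4% of all genes were, and 0 were higher. The naive median was -1.20. Naive Mx1 read 3027 in pLN and 1220 in PP, naive Oas1a 980 and 719, and naive Ifit3 1955 and 848.

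The promoters of the genes in this group were read for the interferon-stimulated response element, written here as GAAANNGAAA or TTTCNNTTTC on the other strand. RefSeq promoters (GRCm38.p6) were found for 18 of the 24, and Mx1 and Usp18 had no entry. The 250 bases before the start site held a match for 12 of the 18 (66.7%), against 3.13% of 9159 measured genes and 2.98% of 32851 windows in the table. By direction, matches were found for 4 of 7 list genes lower in PP (57.1%) and for 8 of the other 11 (72.7%). These shares have no test. Among all genes lower in PP, 13 of 150 held it (8.67%), and among genes higher in PP, 13 of 409 (3.18%). The 150 include the 7 list genes lower in PP and their 4 with a match, so the 2 shares overlap. The 4 genes lower in PP with a match are shown because they combine a match with a lower signal in PP, as windows of 60 bases on the strand of the gene, 5′ to 3′, with matches in capitals.
Ifit3, chr19:34583365-34583424, plus strand: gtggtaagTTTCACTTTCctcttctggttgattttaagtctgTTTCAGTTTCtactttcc
Oas1a, chr5:120907526-120907585, minus strand: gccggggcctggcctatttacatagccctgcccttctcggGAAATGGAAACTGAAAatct
Oas3, chr5:120777700-120777759, minus strand: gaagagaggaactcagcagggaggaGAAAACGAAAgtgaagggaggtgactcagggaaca
Rsad2, chr12:26456538-26456597, minus strand: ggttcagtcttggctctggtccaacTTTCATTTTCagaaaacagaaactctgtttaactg
Ifit3 holds 2 separate matches, and in Oas1a 2 matches overlap. A match is a description of the letters and says nothing of binding in these cells.

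**Figure D3:**
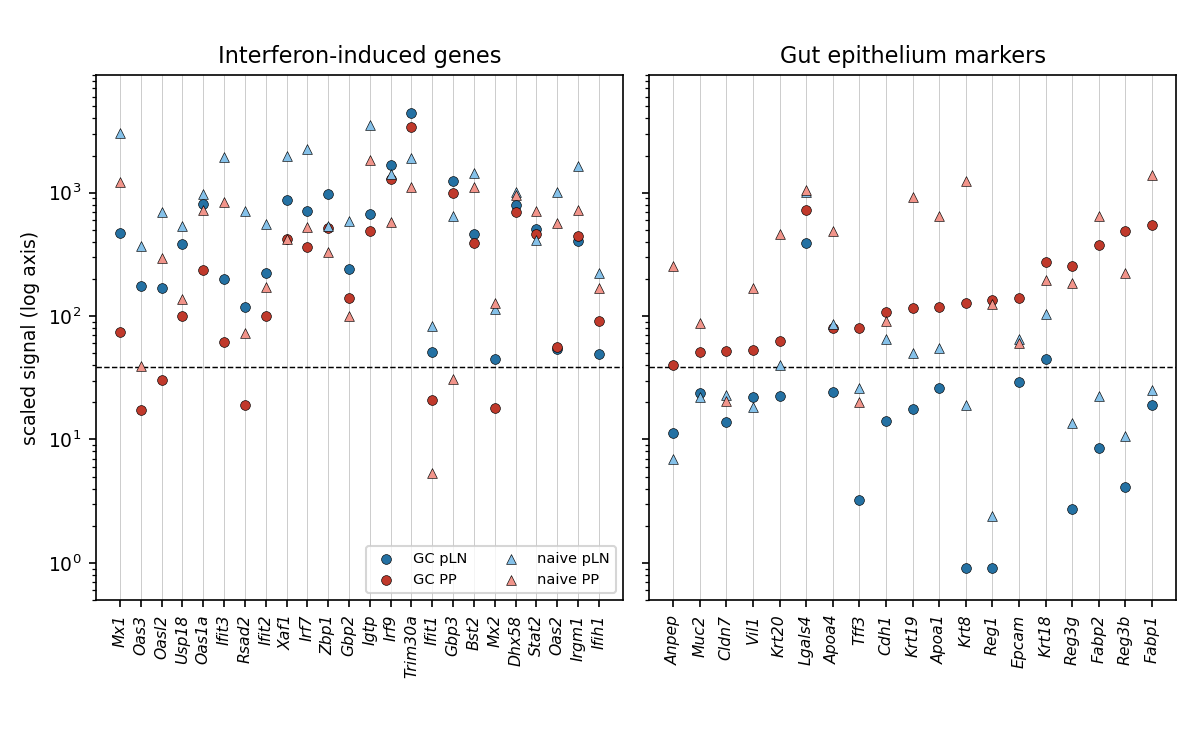
The y axis gives the scaled signal on a log axis for the measured interferon-induced genes (left, 24 genes) and gut epithelium markers (right, 19 genes), with circles for GC and triangles for naive cells, 1 array each, and the GC detection level of 38.9 as a dashed line. Red circles (GC PP) lie below blue circles (GC pLN) for 21 interferon genes, and above them for the 19 gut genes.

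Genes of activation and immediate early response were mixed. Ccnd2, a D-type cyclin that carries selected cells into the cycle, read 1184 in pLN and 3212 in PP, and its 7 probe sets ranged from 1.44 to 2.16. Myc, which marks positively selected GC cells, read 421 and 1015. Of 18 measured light zone and activation genes, these 2 were higher, Fcer2a was lower, and the median was 0.14. Cd83 (8587 and 8085), Cd86 (3937 and 2685) and Nfkbia (7198 and 7356) did not reach 2-fold. Cd69, an early activation antigen that holds cells in tissue, was just under the threshold, at 0.99, with 2025 and 4013. The immediate early and stress list held 13 measured genes, of which Jun, Dusp1 and Fosb were higher (4.82% of all genes were) and Btg2 was lower (1.66%), with a median of 0.67, or 0.16 with the probe set of smallest ratio. Jun read 157 and 479, with probe sets at 1.60 and 1.75, and Dusp1, a phosphatase of MAP kinases, 746 and 1850. Fosb read 12.6 and 96.1 (at least 2.47-fold), and Btg2, an antiproliferative gene, 2216 and 1031, although its probe sets stood at -1.10 and -0.26. Fosb was above the level only in PP, so it could only come out as higher.

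Cytokine genes and receptors showed a few differences. Socs3, a feedback inhibitor of cytokine signalling, read 230 in pLN and 604 in PP, with 3 probe sets from 1.20 to 1.51, and 3182 and 6742 in naive cells. Il4ra, the receptor for interleukin 4 and interleukin 13, read 3824 and 1647, but its 3 probe sets ranged from -1.51 to -0.12. Il10ra read 675 and 147 by its brightest probe set, while another, at 16.0 and 57.1, gave at least 0.55, so its direction is not settled. Of 22 measured cytokine receptor and STAT genes, 1 was higher and 2 lower, with a median of -0.06. Of 18 genes of the NF-kB and TNF families, Tnf (825 and 284) and Ltb, the membrane lymphotoxin chain (3937 and 1823), were lower and 0 were higher. Among 18 genes of microbial sensing, Tlr4, the receptor for bacterial lipopolysaccharide, was lower, at 372 and 101, and 0 were higher (median -0.21). Myd88, the adaptor shared by most of these receptors, read 1201 and 857, and Tlr9 was below the level on both arrays.

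Proliferation genes were close in the 2 tissues. Of 21 mitosis genes, 0 reached 2-fold, 18 had a ratio above 1 and the median was 0.17. Mki67, the proliferation antigen, read 8548 in pLN and 10204 in PP, Top2a 5144 and 5467, and Aurkb, a mitotic kinase, 1835 and 2655. Of 27 DNA replication genes, 0 reached 2-fold, 24 had a ratio above 1, and the median was 0.20. Tyms, the thymidylate synthase, had the largest difference of that list at 230 and 436. Dark zone genes gave 0 of 8 at 2-fold and a median of 0.26. With the values as deposited, the median of all genes was -0.23 in place of 0.03, and those of the mitosis, replication and dark zone lists were -0.10, -0.07 and -0.01, so their sign depends on the scaling.

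Antigen presentation, receptor signalling and metabolism likewise held few or no genes at 2-fold. The B cell receptor list gave 0 of 19 (median -0.19), MHC class II 0 of 11 (-0.02), MHC class I 0 of 12 (-0.20) and apoptosis 0 of 14 (-0.05). Cd79b, a signalling chain of the receptor, read 10426 and 10219, and Cd74, the invariant chain, 14385 and 14162. Bcl2l11, the proapoptotic BIM, read 3069 and 1682, the largest difference of its list. Glycolysis gave 0 of 15 (0.08), oxidative phosphorylation 0 of 16 (-0.03) and cholesterol synthesis 0 of 15 (-0.11). In the hypoxia list, 1 of 12 was higher, Adm, a vasodilator peptide, at 29.8 and 142 (at least 3.66-fold). Adm was above the level only in PP, so it could only come out as higher.

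**Figure D4:**
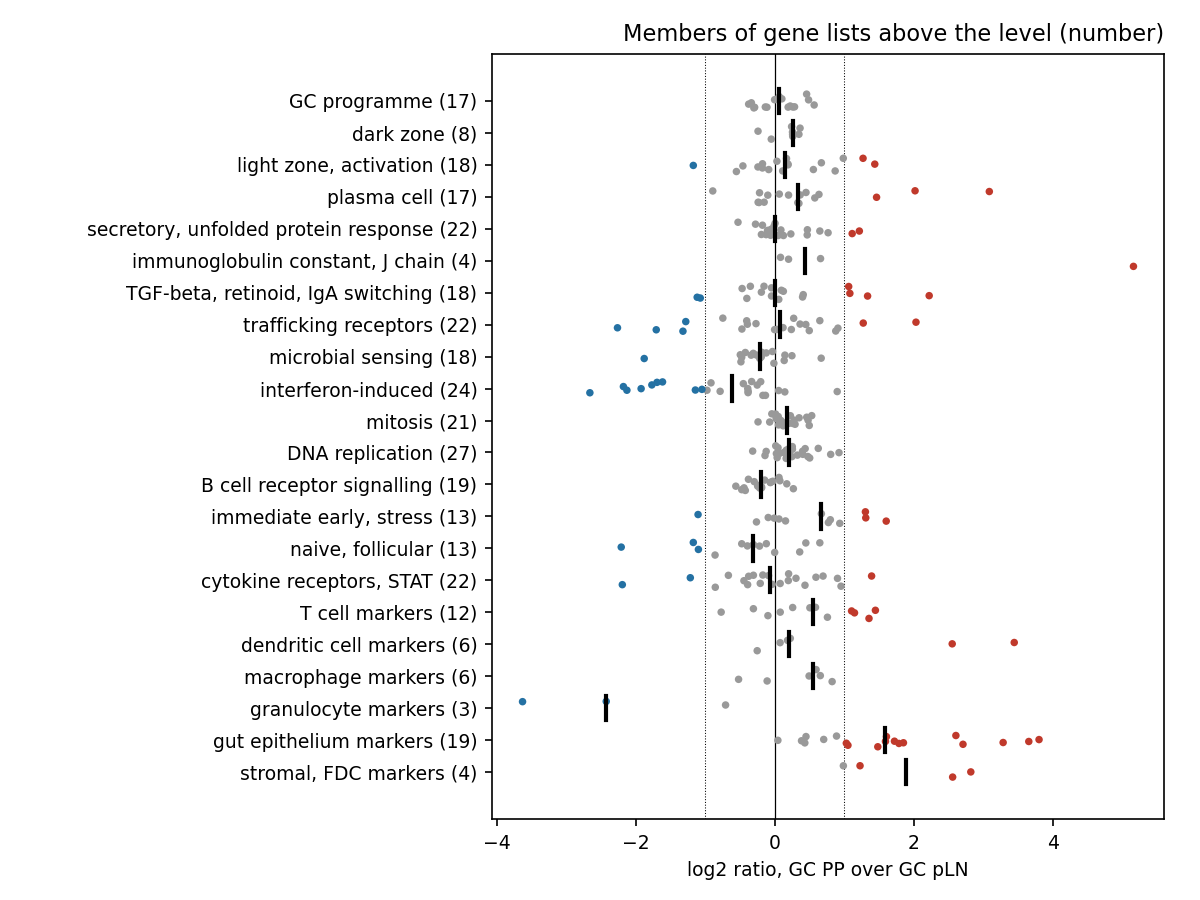
Each point is a measured member of a gene list (y axis, number measured in parentheses), placed by its log2 ratio of GC PP over GC pLN (x axis); red points are 2-fold or more higher, blue points lower, black bars are medians and dotted lines mark 2-fold. Interferon-induced genes reach to the left (median -0.62), while the GC programme and mitosis lists lie within 2-fold. Ifit1, Mx2, Oas3, Oasl2 and Rsad2 of the interferon-induced list were measured only through the pLN array. Of the 21 gut epithelium genes on the array, 19 were below the level in pLN and 2 in PP, so those shown were mostly measured only through the PP array and their place supports no direction. The 3 granulocyte genes shown were measured only through the pLN array, so their place supports no direction either.

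Markers of gut epithelium were above the level on the GC PP array and mostly below it on the GC pLN array. Of 21 such genes on the array, 19 were below the level in pLN and 2 in PP, and their summed signal was 714 in pLN and 3867 in PP. Of the 19 measured, 13 were higher and 0 lower. Most of them were measured only through the PP array, so this count supports no direction. Fabp1, a fatty acid carrier of enterocytes, read 18.9 and 543 (at least 14.0-fold), Fabp2 8.52 and 380 (at least 9.77-fold), and Reg3b, an antimicrobial lectin of the gut lining, 4.12 and 490 (at least 12.6-fold). Zg16, a lectin of goblet cells, had one of the 12 largest ratios, at 17.7 and 556 (at least 14.3-fold). Epcam, the epithelial adhesion molecule, read 29.2 and 140, and Krt18, a keratin, 45.0 and 274. On the naive arrays the sum was 1724 in pLN and 8332 in PP, so both PP arrays were the higher of their pair. The part of such RNA in the other differences was not tested. 

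Other cell type markers differed in part between the GC arrays, and several went the other way on the naive arrays. Of 12 measured T cell markers, 4 were higher in PP, where 4.82% of all genes were, and 0 lower (median 0.55). At their dim signals the share of all genes that were higher was larger, 14.8% at 38.9 to 100 and 12.6% at 100 to 200. The T cell list had summed signals of 852 and 1448, but 1638 in pLN and 817 in PP on the naive arrays. Cd3e read 95.3 and 244, Cd3g 74.6 and 204, Cd3d 106 and 236, and Cd8a 127 and 273, all dim. The 5 probe sets of Cd8a ranged from at least 0.44 to 1.11, and 1 of them reached 2-fold. Cd4 read 40.9 and 61.4. Thy1 (80.2 and 47.0), Il7r (85.7 and 69.3) and Cd8b1 (41.6 and 12.5) were the members with a ratio below 1. Itgax, the integrin CD11c of dendritic cells and some B cells, read 30.7 and 424 (at least 10.9-fold), and Ccl22, a chemokine, 68.7 and 404. These were the 2 higher of 6 measured dendritic cell markers, where 4.82% of all genes were higher, and 0 were lower (median 0.20). Itgax was above the level only in PP, so it could only come out as higher. On the naive arrays Itgax read 199 in pLN and 112 in PP, and Ccl22 149 and 50.3. Flt3 (1083 and 1231), Zbtb46 (140 and 148), Siglech (48.8 and 57.0) and Bst2 (463 and 389) lay within 2-fold. The defining dendritic cell genes Xcr1, Cd209a and Batf3 were below the level on both arrays. Cxcl13, the B cell chemokine of follicular dendritic cells, read 41.9 and 296. Clu, a chaperone those cells make, read 67.2 and 396, with 4 probe sets from at least 2.53 to 2.69. Mfge8, a bridge for dying cells, read 193 and 453. These were the 3 higher of 4 measured markers of stromal and follicular dendritic cells, where 4.82% of all genes were higher, and 0 were lower. Of 11 such genes on the array, 8 were below the level in pLN and 7 in PP. On the naive arrays Clu read 248 and 812, and Mfge8 262 and 165. Itgax, Ccl22, Cxcl13 and Clu were dim as well, in the ranges given above. The fibroblast genes Col1a1, Col1a2, Col3a1 and Pdgfra were below the level on both arrays. Of 6 measured macrophage markers, 0 reached 2-fold, with Apoe at 2528 and 3561, and C1qa and Cd14 were below the level on both arrays. Lyz1, the 1 measured Paneth cell marker, read 388 and 689, and Pecam1, the 1 measured endothelial marker, 332 and 209.

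Granulocyte markers, where measured, were above the level only on the GC pLN array. Of 8 such genes on the array, 8 were below the level in PP and 5 in pLN. The 3 measured genes passed through the pLN array alone, so their count supports no direction. S100a9, a calcium-binding protein of neutrophils, read 481 in pLN and 1.22 in PP (at least 12.4-fold lower), and S100a8, its partner, 209 and 16.0 (at least 5.37-fold lower). Ngp, a neutrophil granule protein, read 63.5 and 3.88, a bound of at least 1.63-fold that did not reach 2-fold. Elane, Mpo, Camp and Ltf were below the level on both arrays. The summed signal of the 8 granulocyte genes on the array was 795 in pLN and 73.1 in PP. The part of granulocyte RNA in the genes lower in PP was not tested.

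Agreement between probe sets was the available check on technical noise. For 5640 genes with at least 2 probe sets above the level, which count Nr4a2 although its brightest probe set was below it, the log2 ratios of the 2 brightest differed by a median of 0.23, with an SD of 0.44. Of 216 genes higher in PP by the brightest probe set, the next brightest pointed the same way for 211 and was itself at 2-fold for 111. Of 79 lower genes, it pointed the same way for 76 and was at 2-fold for 30. This covers differences between probes on the same arrays and says nothing of the spread between mice or hybridisations.

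The share of genes at 2-fold was largest among dim genes. At mean signals from 38.9 to 100, 14.8% of 1371 genes were higher in PP and 2.84% lower, and the median log2 ratio was 0.30. Between 800 and 1600, 1.35% of 2072 genes were higher and 1.11% lower, with a median of -0.02, and above 3200 it was 0.137% and 0.0685% of 1460 genes. The excess of genes higher in PP lay among dim genes, and the detection level of the PP array itself was the higher of the pair (38.9 against 30.4). With a level of 200, a choice made after the data were seen, 184 genes were higher and 102 lower.

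**Figure D5:**
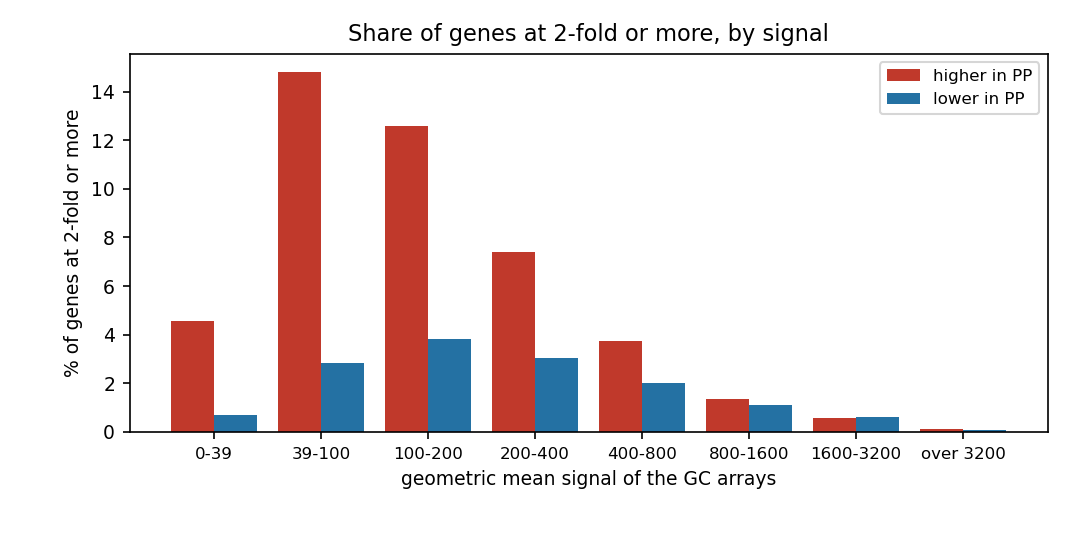
Bars give the percentage of genes (y axis) at 2-fold or more higher (red) or lower (blue) on the GC PP array, for 8 ranges of the geometric mean signal of the GC arrays (x axis). Red bars exceed blue ones most at 39 to 100 (14.8% against 2.84%), and the bars nearly meet above 800.

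The naive arrays gave a second comparison of the same tissues that shares no array with the first, although naive and GC cells may have come from the same mice. Of 9528 genes measured there, 684 were higher in PP (7.18%) and 1469 lower (15.4%), with the unequal 3' to 5' ratios given above. Of 9253 genes measured in both comparisons, 51 were higher in PP in both cell types. They made up 19.6% of the 260 genes higher in GC cells, beside 7.21% of all 9253 that were higher in naive cells. They also made up 7.65% of the 667 genes higher in naive cells, beside 260 of all 9253 that were higher in GC cells. In both cell types 47 genes were lower in PP. They made up 31.1% of the 151 genes lower in GC cells, beside 15.8% of all 9253 that were lower in naive cells. They also made up 3.22% of the 1459 genes lower in naive cells, beside 151 of all 9253 that were lower in GC cells. Igha, Zg16, Fabp1 and Socs3 were among the genes higher in both, and Lifr, Lfng, Slpi, S1pr4, Mx1 and Ms4a4c among those lower in both. Opposite directions were seen for 28 genes higher in GC and lower in naive cells, and for 7 genes lower in GC and higher in naive cells.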

How the data were processed

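Expression was measured in sorted B cells on 4 single-colour Affymetrix arrays. RNA was extracted with TRIzol and labelled with biotin, per the labels' protocols. Signals came from GCOS, per the submitters' processing notes, by an algorithm and with a scaling target not given in the sources used here. As deposited, the values are linear intensities, with a median of 1 on every array. They were multiplied by 56.4 (GC pLN), 68.0 (GC PP), 50.0 (naive pLN) and 63.3 (naive PP) to reach a 2% trimmed mean of 500, which assumes that the bulk of signals is equal. No depth applies to arrays, and 1 array per group limits the precision of every value.

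Of 45101 probe sets, 34958 carried a single symbol in the platform annotation, 932 carried several and 9211 were not listed, and 34754 matched RefSeq by Entrez identifier and 0 symbols changed. Ratios were computed in Python 3.11.15 with numpy 2.4.6 and pandas 2.3.3. The alternative by cyclic loess used limma 3.58.1 in R 4.3.3. The calling rule was run on simulated data with large differences in genes well above the detection level. That run does not cover dim genes or differences near 2-fold. Genes on 38 lists (528 of 588 on the array) were described by counts and medians without tests.

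Genes were named by a rule: the 12 highest and 12 lowest ratios, up to 10 each way whose several probe sets agreed, 7 markers, the sort genes, up to 4 at 2-fold in each list (or the largest ratio) and the immunoglobulin constant genes. Other genes were named after their values were seen. The members, markers and lists were chosen with earlier results of these data known. Alternatives covered scaling, detection level, probe set choice and the fold threshold.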

Additional observations from a re-analysis of the deposited data

Results flagged for a closer look

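For 6 of the genes named in the text the difference between PP and pLN was 2-fold or more in both cell types but in opposite directions, with 1 array per group, and the difference between cell types was not tested. Cnr2, the cannabinoid receptor, had a log2 ratio of -1.71 in GC cells (1070 in pLN and 328 in PP) and 1.15 in naive cells (3122 and 6913). Jun had a log2 ratio of 1.60 in GC cells (157 and 479) and -1.56 in naive cells (565 and 192). Dusp1 stood at 1.31 in GC cells (746 and 1850) and -1.33 in naive cells (274 and 99.6, the latter below the naive level of 109). Cd7 stood at 2.5 in GC cells (90.3 and 511) and -1.25 in naive cells (521 and 219), Plac8 at 1.60 (1236 and 3754) and -1.90 (1444 and 388), and Ccl5 at 1.45 (170 and 465) and -2.10 (554 and 129). The last 3 genes were chosen after their values were seen. The Gapdh 3' to 5' ratios of the naive arrays were 18.7 in pLN and 96.4 in PP. On those arrays 15.4% of genes were lower in PP and 7.18% higher. Of 9253 genes measured in both comparisons, 28 were higher in GC and lower in naive cells, and 7 the reverse.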

How the results depend on the processing

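The number of genes at least 2-fold higher in PP was 351 with the level doubled, 886 with it halved and 184 with a level of 200, an alternative chosen after the data were seen, and 1354 or 214 at a threshold of 1.5-fold or 3-fold, in place of 542. The number lower, 187, became 424 with the values as deposited, 102 with the level of 200, and 632 or 58 at 1.5-fold or 3-fold. The share higher among genes at 2-fold, 74.3%, was 47.9% with the values as deposited, 64.2% after quantile normalization and 64.3% with the level of 200. The interferon median was -0.95 with the level halved. The gut epithelium median of 1.59 was 1.27 after quantile normalization, 2.24 with no floor, 0.82 and 2.22 with the level doubled and halved, 1.25 with the mean of probe sets, 1.05 with the probe set of smallest ratio and 0.91 with the level of 200. Il10ra reversed to 0.55, a bound, with the probe set of smallest ratio. Of 729 genes at 2-fold, 577 were so with the values as deposited, 569 after quantile normalization and 670 after cyclic loess. The 7 markers stayed at 2-fold or more in all settings run, with Igha from 4.89 to 6.71, Tox2 from 4.11 to 4.95, Osbpl3 from 3.33 to 4.60, Prdm1 from 2.33 to 3.13, Sdc1 from 1.69 to 2.26, Slpi from -3.11 to -2.54 and S1pr4 from -2.53 to -2.22. Of 85 named genes at 2-fold, 51 stayed there in all settings. Those that did not include Lifr, Fam135a and Ret with the probe set of smallest ratio, which gives a bound for each of these, and Usp18, Itgae, Clu, Cxcl13, Reg3g and the Cd3 genes with the level of 200. The cause of these changes was not tested beyond what each setting alters. No paired analysis was possible because each group has 1 array.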

Other observations

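These genes were chosen after their values were seen, and no difference was tested. Gzma, a granzyme, read 256 in pLN and 2244 in PP, and Ctla4, an inhibitory receptor of T cells, 60.2 and 599. Cd7 read 90.3 and 511, Cd244a 56.6 and 309, and Ccl5 170 and 465, while naive Cd7 (521 and 219) and naive Ccl5 (554 and 129) were lower in PP. Among bright genes, Chdh, a choline dehydrogenase, read 803 and 4537, Cacna1d, a calcium channel subunit, 572 and 3114, and Plac8 1236 and 3754, against 1444 and 388 for naive Plac8. Bhlha15, a transcription factor of secretory cells, read 108 and 487.

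In the lower direction, Ifit1bl1 read 1415 in pLN and 263 in PP, and Rtp4, which is known as interferon-induced, 163 and 49.1. Cd2, an adhesion molecule, read 4752 and 2053, Satb1, a chromatin organiser, 2761 and 1305, and Id3, an inhibitor of E proteins, 2389 and 1162. Hemgn, known from erythroid cells, read 795 and 278, the same direction as Hbb-bh1. Car2, the 1 measured member of the erythroid list, went the other way, at 371 and 538. Of 6 genes of that list on the array, 5 were below the level on both GC arrays.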
